A study of Mus musculus with 14 samples.

Results

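Of 734 regions of the mouse genome that gained accessibility in E14 embryonic stem cells after cycloheximide, 259 had their centre inside an annotated gene. They were selected on the measured gain itself, by the authors, and on position. Position means the integer midpoint of each region in the authors' deposited list set against the spans of all RefSeq genes of assembly GRCm38.p6, of any biotype, on chromosomes 1 to 19, X and Y. The other 475 gained regions lay outside genes. E14 is an established line of mouse embryonic stem cells, grown here in serum with LIF, the cytokine that keeps such cells pluripotent. Cells received 1 µg/ml cycloheximide or DMSO for 3 hours, and open chromatin was profiled in 4 cycloheximide and 4 control ATAC-seq libraries. The series also contains 2 H4K16ac ChIP-seq libraries and 1 input library for each treatment, which were not analysed here. The comparison asks where chromatin opens or closes after this inhibitor of protein synthesis, whose effect on synthesis is not part of the lists.

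ATAC-seq uses a transposase that cuts and tags DNA where nucleosomes leave it exposed, which in most cells marks promoters, enhancers and insulators. Cycloheximide stops ribosomes during elongation, so that proteins with a short life are no longer replaced. Within genes, accessible sites are usually either promoters, at the start of a transcript, or regulatory elements in introns, which may act on the gene that contains them or on another gene nearby. The deposited lists give positions only. No library-level value, size of change or replicate spread accompanies a region, so each region counts as 1 observation, the gain itself is not tested, and the tests compare listed regions and not libraries.

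Gained regions inside genes lay at the start of their host gene more often than lost regions inside genes did. The host is the gene whose span holds the region's centre, a protein-coding gene being taken before any other and then the longest. The start is the 5′ edge of the host's span, and it could be placed where the RefSeq promoter table gives the strand, which was the case for 194 gained and 189 lost regions. Of these, 22 gained regions (11.3%, Wilson 95% interval 7.61% to 16.6%) and 2 lost regions (1.06%, 0.291% to 3.78%) had their centre within 1 kb of the start. The difference was 10.3 percentage points (Newcombe 95% interval 5.67 to 15.6; two-sided exact test of Fisher, p = 2.18e-05, adjusted over 4 comparisons of start and end 8.74e-05). For scale, 2.42% of all annotated gene bases with a known strand lie that close to a start. Each list holds 2 sorted runs of chromosomes, and in the first, with 7 of 62 gained regions and 0 of 41 lost ones, the difference did not pass (exact test, p = 0.0400, adjusted p = 0.160). The split into start and end was added after the data were seen. The intervals cover the counting error of regions only. Counted against any annotated transcript start, internal and neighbouring ones included, on the 20 chromosomes of the promoter table, 30 of 251 gained regions inside genes (11.95%, Wilson 95% interval 8.50% to 16.5%) and 8 of 230 lost ones (3.48%, 1.77% to 6.71%) lay within 1 kb, a smaller contrast that was not tested.

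Sequence before the start is shown for 7 of these genes, picked with their values in view among those whose regions cover sequence in the promoter table. Regions at others, such as Fbn1 and Gm27211, cover such sequence too and are not shown, and the stretch at Gm27211 holds none of the motifs below. Each stretch is the 250 bases before the start, 5′ to 3′ on the gene's strand, from RefSeq GRCm38.p6. Capitals mark matches on either strand to 7 motifs. Those searched were the CCAAT box, the TATAAA form of the TATA box, the octamer ATGCAAAT of POU factors, the GC box GGGCGG, the AP-1 site TGACTCA, the cAMP response element TGACGTCA and the E-box CACGTG. The first 3 are histone genes, and the stretches are chr11:58948661-58948910 (plus strand) for H2bu2, chr13:23763418-23763667 (plus strand) for H1f1 and chr13:21783398-21783647 (minus strand) for H3c11.
H2bu2: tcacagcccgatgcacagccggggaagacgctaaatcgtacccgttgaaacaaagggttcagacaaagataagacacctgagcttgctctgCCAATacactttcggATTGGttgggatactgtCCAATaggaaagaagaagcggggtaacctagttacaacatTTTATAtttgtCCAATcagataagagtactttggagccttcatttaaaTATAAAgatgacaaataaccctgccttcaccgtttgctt
H1f1: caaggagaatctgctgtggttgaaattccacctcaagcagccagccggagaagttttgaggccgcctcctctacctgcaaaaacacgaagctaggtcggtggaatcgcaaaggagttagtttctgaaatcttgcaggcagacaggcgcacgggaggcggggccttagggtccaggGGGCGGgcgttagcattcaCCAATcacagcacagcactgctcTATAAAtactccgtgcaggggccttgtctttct
H3c11: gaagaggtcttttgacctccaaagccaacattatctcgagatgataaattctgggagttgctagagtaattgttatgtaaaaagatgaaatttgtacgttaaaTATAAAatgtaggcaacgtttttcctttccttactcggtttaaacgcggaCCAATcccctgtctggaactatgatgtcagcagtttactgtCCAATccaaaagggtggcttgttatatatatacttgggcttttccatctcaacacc
The region covered all 250 bases at H2bu2, 247 at H1f1 and 148 at H3c11. All 3 stretches carry CCAAT and TATAAA.

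The other 4 stretches are chr11:7063183-7063432 (plus strand) for Adcy1, chr7:134670437-134670686 (plus strand) for Dock1, chr7:127708767-127709016 (minus strand) for Bcl7c and chr8:66688095-66688344 (minus strand) for Npy5r.
Adcy1: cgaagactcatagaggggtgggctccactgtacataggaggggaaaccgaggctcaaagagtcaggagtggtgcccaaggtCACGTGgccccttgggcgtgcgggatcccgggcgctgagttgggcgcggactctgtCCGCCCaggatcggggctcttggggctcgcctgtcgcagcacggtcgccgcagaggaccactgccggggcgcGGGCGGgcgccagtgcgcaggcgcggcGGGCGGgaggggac
Dock1: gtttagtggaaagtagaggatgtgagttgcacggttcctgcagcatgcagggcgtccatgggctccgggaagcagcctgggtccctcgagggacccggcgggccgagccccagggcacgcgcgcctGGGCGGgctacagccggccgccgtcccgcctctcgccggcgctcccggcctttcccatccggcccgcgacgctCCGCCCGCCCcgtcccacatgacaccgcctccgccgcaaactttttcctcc
Bcl7c: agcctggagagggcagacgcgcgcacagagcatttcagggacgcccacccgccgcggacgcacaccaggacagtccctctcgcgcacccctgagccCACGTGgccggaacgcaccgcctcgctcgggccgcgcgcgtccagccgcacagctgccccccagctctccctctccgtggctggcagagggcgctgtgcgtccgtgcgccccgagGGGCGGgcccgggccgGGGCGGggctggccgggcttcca
Npy5r: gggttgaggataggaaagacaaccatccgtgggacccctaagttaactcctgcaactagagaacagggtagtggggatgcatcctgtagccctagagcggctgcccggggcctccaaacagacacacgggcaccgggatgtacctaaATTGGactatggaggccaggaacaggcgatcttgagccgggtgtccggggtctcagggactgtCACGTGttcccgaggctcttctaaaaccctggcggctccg
The region covered all 250 bases at Adcy1, Dock1 and Bcl7c and 243 at Npy5r. GGGCGG, the letters of the GC box bound by Sp1-family factors, occurs at Adcy1, Dock1 and Bcl7c, where 2 matches at Dock1 overlap each other. CACGTG, an E-box, occurs at Adcy1, Bcl7c and Npy5r. TATAAA occurs at none of the 4.

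Over all members, regions overlapped 33 such stretches before transcript starts, belonging to 30 genes and including alternative starts and neighbouring genes. Of these stretches 8 belong to histone genes, and all 8 hold CCAAT, against 8 of the other 25 (32%) and 33.8% of all 32851 stretches in the table. TATAAA was found in 6 of the 8 histone stretches and in 2 of the other 25 (8.0%), where 12.4% of all stretches hold it. GGGCGG was found in 2 of the 8 histone stretches and in 13 of the other 25 (52.0%), where 32.7% of all stretches hold it. The octamer ATGCAAAT, bound by POU-family factors, was found in 3 stretches, all at histone genes and 2 of them the overlapping stretches of the divergent pair H2bc1 and H2ac1, against 1.601% of all stretches. CACGTG was in 5 of the 25 non-histone stretches (20%; 6.02% of all), and the AP-1 site and the cAMP response element were in 1 each, where 4.46% and 1.55% of all stretches hold them. Median GC content was 58.4% over the 33 stretches and 52.4% over the table. A match describes letters and is no evidence of binding.

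Among the 22 regions centred within 1 kb of a host start, 18 had protein-coding hosts and 4 had long non-coding RNA hosts. In the authors' deposited list 12 of them ran across the start and 10 began past it. Here the start is the edge of the span, and some of the 10 lay at another annotated start inside it. Their hosts had mixed roles. The region at Fbn1, which encodes the microfibril protein fibrillin-1, was the widest at 2109 bp and reached from 679 bp before the start to 1429 bp into the gene (chr2:125505056-125507164). That at Dock1, an exchange factor that activates Rac, spanned 1643 bp from 493 bp before the start to 1149 bp past it (chr7:134670194-134671836). Around the start of Adcy1, an adenylyl cyclase that makes cAMP, the region spanned 886 bp and was centred 85 bp into the gene (chr11:7063076-7063961). Both neuropeptide receptor genes in the group, Npy5r for neuropeptide Y and Tacr1 for substance P, had regions over 900 bp wide, 1139 bp (chr8:66687199-66688337) and 933 bp (chr6:82402176-82403108). The region at Npy5r crossed the start, whereas that at Tacr1 began 173 bp past it. The region at Tacr1 nevertheless covered the 250 bases before another annotated start of its gene, inside the span.

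Plin2, which coats lipid droplets, had a region of 466 bp that began 8 bp past the start (chr4:86669744-86670209). Fuca2, a fucosidase, had one of 703 bp centred 646 bp into the gene (chr10:13500865-13501567). Sptlc3, a subunit of serine palmitoyltransferase in sphingolipid synthesis, had the narrowest region of the 22, at 331 bp (chr2:139494644-139494974). Slc35b3, a transporter of the sulfate donor PAPS, had one of 910 bp that crossed the start by 100 bp (chr13:38960070-38960979). Zfp523, a zinc finger protein, had a region of 454 bp centred 108 bp from the start (chr17:28177078-28177531), and Bcl7c, a subunit of BAF chromatin remodelling complexes, had one of 940 bp. The regions at Ascc1 (896 bp) and Dnah7b (870 bp), an axonemal dynein heavy chain, lay past the span's start. Both of these regions, and those at Plin2, Fuca2 and 2810048H02Rik, nevertheless overlapped the stretch before another annotated start of their gene.

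**Figure D1:**
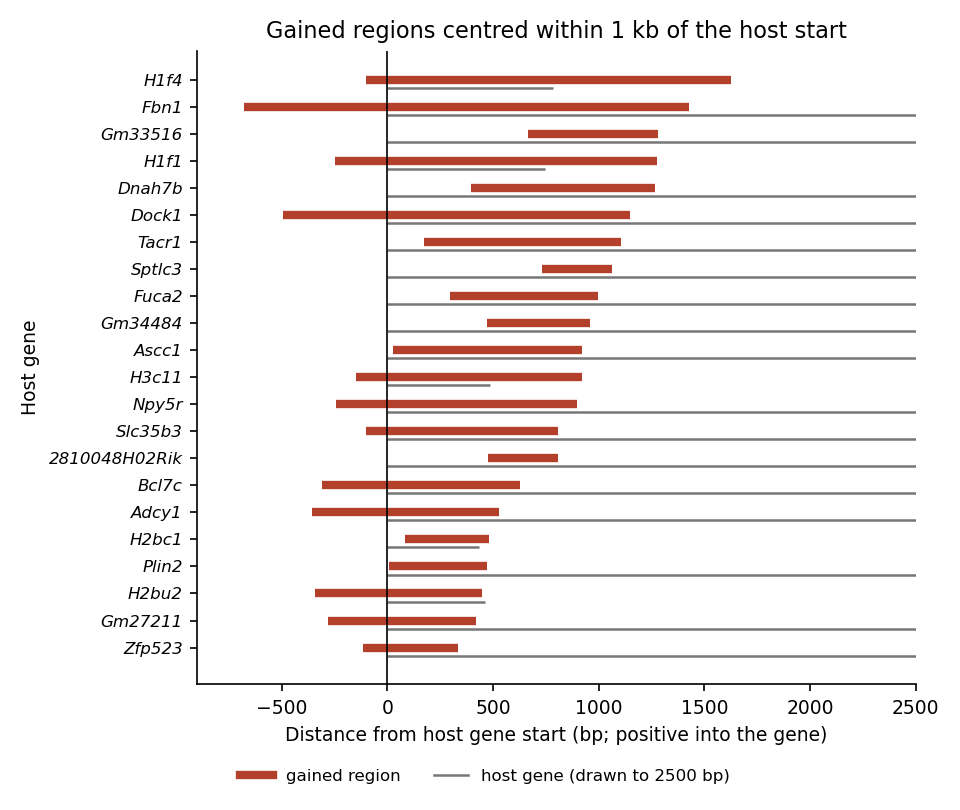
Extent of the 22 gained regions centred within 1 kb of the start of their host gene (horizontal axis, bp from the start, positive into the gene; 1 host gene per line; thick bars, regions; thin lines, host genes). Of the bars 12 cross the start and 10 lie past it, and those at H1f4, H1f1, H3c11 and H2bc1 extend beyond the end of the gene.

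Histone genes made up 5 of the 22. They encode the proteins that package DNA, and as they are under 1 kb long, a centre inside one is always within 1 kb of its start and its end. The hosts were H2bc1 (432 bp long), H2bu2 (462 bp), H3c11 (483 bp), H1f1 (745 bp) and H1f4 (782 bp), the 5 shortest protein-coding hosts. The regions at H3c11, H1f1 and H1f4, of 1071, 1522 and 1727 bp, contained the whole gene. Without the histone hosts, 17 of 189 gained regions (8.99%) and 2 of 189 lost regions (1.06%) lay within 1 kb of the start (two-sided exact test of Fisher, p = 0.000542, adjusted p = 0.00217). These 17 include the region in the non-coding gene Gm33516, which overlaps the promoter stretches of the histone genes H2bc1 and H2ac1. No lost region had a histone gene as host, and the shortest host of a lost region was 3613 bp long.

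For 8 further members within 1 kb of a host boundary the strand is not in the table, so start and end cannot be told apart. The region at Maf, a basic leucine zipper transcription factor, lay 180 bp from a boundary and was 1868 bp wide in a host 3.642 kb long (chr8:115705781-115707648). Other protein-coding hosts were Trim17 (62 bp from a boundary), Ly6k (91 bp), Ano8 (688 bp) and Plcl2 (991 bp), and the non-coding ones were Rnf227 (60 bp) and the pseudogene Gm5210 (734 bp). The region assigned to Trim17 contained the whole of the histone gene H2aw, which lies within the Trim17 span.

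Within 10 kb of the start lay 50 gained regions (25.8%) and 28 lost regions (14.8%), a difference of 10.96 percentage points (95% interval 2.89 to 18.9; two-sided exact test of Fisher, p = 0.0108, adjusted p = 0.0217), beside 19.1% of annotated bases. It did not pass without histone hosts (8.99 points; exact test, adjusted p = 0.0732), in the first run (6.29 points; adjusted p = 0.487) or in the upper 50% by width (10.4 points; adjusted p = 0.119). At the other edge of the host no difference passed the test. Within 1 kb of the end lay 7 gained regions (3.61%) and 2 lost regions (1.06%; exact test, adjusted p = 0.175), and of the 7 gained regions 5 were at the short histone genes. Within 10 kb of the end lay 35 gained (18.04%) and 21 lost regions (11.1%), a difference of 6.93 points (95% interval -0.186 to 14.0; exact test, adjusted p = 0.0811), beside 19.0% of annotated bases.

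**Figure D2:**
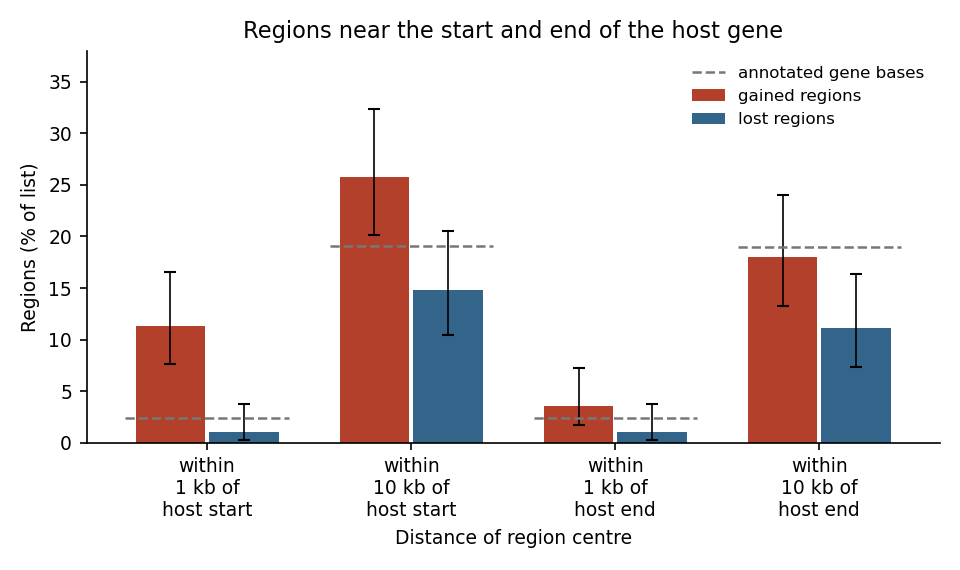
Share of gained (n = 194) and lost (n = 189) regions inside genes with their centre within 1 kb or 10 kb of the start or end of the host gene (vertical axis, percent of the list; error bars, Wilson 95% intervals; dashed lines, share of annotated gene bases). The widest relative gap is at 1 kb from the start, 11.3% against 1.06%.

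Taking start and end together for all 259 members, whether or not the strand is known, 85 (32.8%, Wilson 95% interval 27.4% to 38.8%) lay within 10 kb of a boundary of the host, against 63 of 236 lost regions (26.7%, 21.5% to 32.7%) and 31.7% of annotated bases. This difference of 6.12 points did not pass the test (95% interval -1.96 to 14.0; two-sided exact test of Fisher, p = 0.142, adjusted over 5 comparisons 0.236). At closer limits it did. Within 1 kb there were 32 gained regions (12.4%) and 9 lost regions (3.81%; Fisher's exact test, adjusted p = 0.00263), and within 5 kb 59 (22.8%) and 31 (13.1%; exact test, adjusted p = 0.0177).

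Along the whole length of the host, gained regions were most numerous in the first 20% from the start, which held 59 of 194 (30.4%, Wilson 95% interval 24.4% to 37.2%). Each later 20% held 33 to 35, or 17.0% to 18.04%. Lost regions were spread without such a maximum, between 29 (15.3%) and 44 (23.3%) in each 20%, with 37 (19.6%) in the first. The median position was 41.4% of the way from start to end for gained and 43.6% for lost regions. In base pairs, the median distance to the start came to 30987 bp in the gained list and 47004 bp in the lost list, and these medians have no test.

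**Figure D3:**
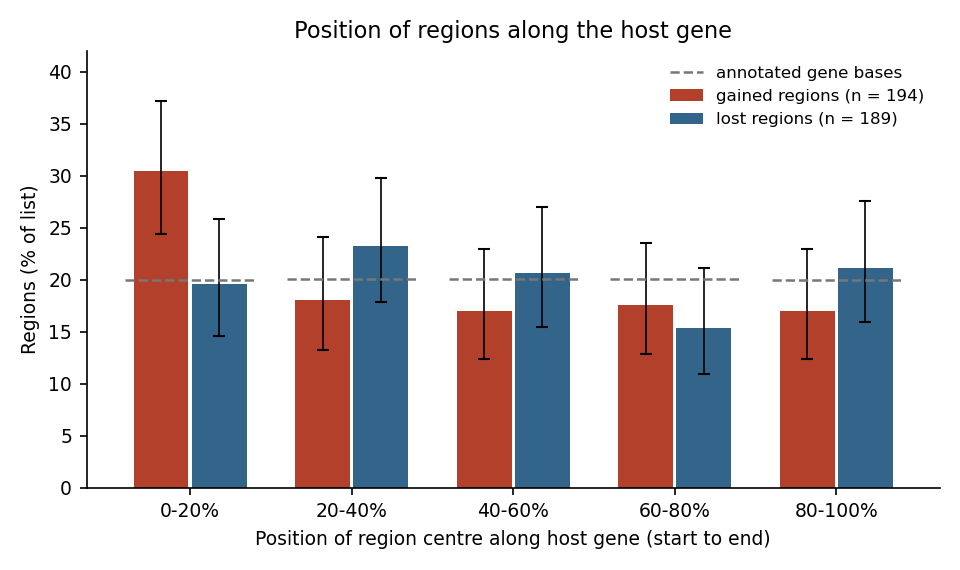
Position of region centres along the host gene in steps of 20% from start to end (horizontal axis) as percent of the list (vertical axis; error bars, Wilson 95% intervals; dashed lines, share of annotated gene bases). The first step holds 30.4% of gained regions and 19.6% of lost regions, while the later steps hold 17.0% to 18.04% of the gained list.

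On the 20 chromosomes with a promoter table, 26 of 251 members (10.4%, Wilson 95% interval 7.17% to 14.7%) overlapped a promoter window, the stretch from 250 bases before to 50 bases after a transcript start. They had a median width of 903 bp and ranged from 334 to 2659 bp. The other 225 had a median of 389 bp. A wider region meets a window more often by its width alone, so these medians partly follow from how the groups were made. Of lost regions inside genes 3 of 230 (1.30%, 0.445% to 3.76%) overlapped such a window. Some of the starts were internal ones. At Mecom, which encodes a zinc finger transcription factor, the region (chr3:30012813-30013478) overlapped a promoter window although it was 497 kb past the span's start, and the same was seen at Magi2, 688 kb past it.

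In the gained list as a whole the median width was 444 bp inside, with quartiles at 273 and 704 bp, and 332 bp outside, with quartiles at 230 and 557 bp. Widths over 500 bp were found for 108 of 259 regions inside genes (41.7%) and 141 of 475 outside (29.7%), a difference of 12.0 points (95% interval 4.79 to 19.3; two-sided exact test of Fisher, p = 0.00112, adjusted over 5 comparisons 0.00558). Leaving out regions within 1 kb of a transcript start together with all regions on chromosome 18, for which promoter windows were not used here, an alternative chosen after seeing the data, gave 81 of 221 (36.7%) inside and 136 of 461 (29.5%) outside, which did not pass (exact test, p = 0.0654 and 0.163 after adjustment). Nor did the difference pass at a limit of 1000 bp, with 36 (13.9%) inside and 48 (10.1%) outside (exact test, adjusted p = 0.242), for regions lying wholly in a gene (6.95 points; adjusted p = 0.170) or in the first run (11.4 points; adjusted p = 0.461).

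**Figure D4:**
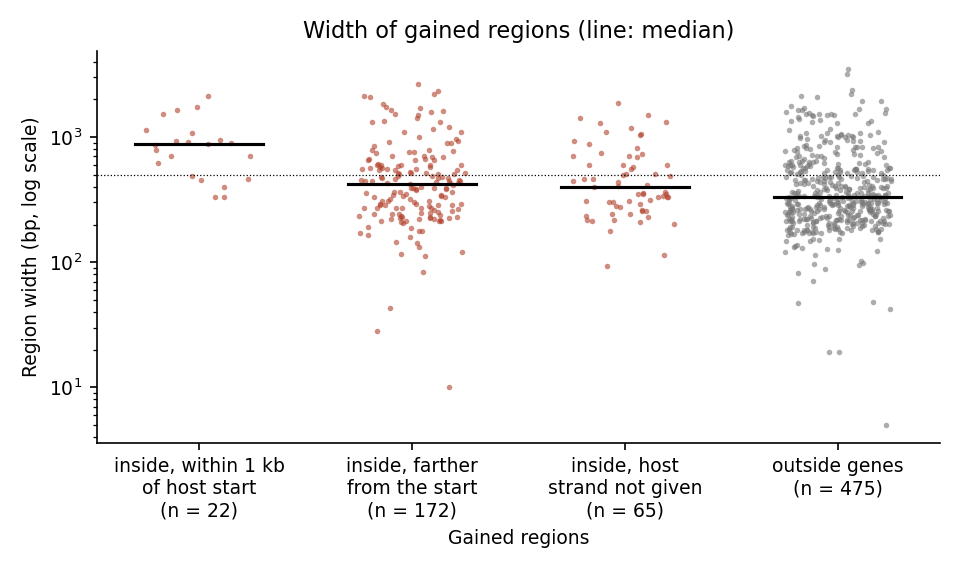
Width of gained regions (vertical axis, bp on a log scale; dotted line, 500 bp) inside genes within 1 kb of the host start, inside genes farther from it, inside genes whose strand is not given, and outside genes. Points are regions and lines are medians, which are 878 bp for the 22 regions at starts, 422.5 bp for the 172 farther ones and 332 bp for the 475 outside genes.

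The 5 widest members differed in position, and those in Gm33458, Fbxl17 and Fbn1 overlapped a promoter window. The widest, 2659 bp, lay in the long non-coding RNA gene Gm33458, 1306 bp from its start (chr2:56798669-56801327). It was followed by regions in Kcnab1, a potassium channel beta subunit (2318 bp, chr3:65195173-65197490, 247 kb from the start), and in Marchf1, a membrane-bound ubiquitin ligase (2193 bp, chr8:65709888-65712080, 93.0 kb from the start). Fbxl17, an F-box protein of ubiquitin ligases, had one of 2122 bp centred 4373 bp from the start (chr17:63498751-63500872), and Fbn1 came next. At the other extreme the 5 narrowest spanned 10 bp in C130071C03Rik, 28 bp in Foxp1, 43 bp in Wdr70, 83 bp in Rnf180 and 93 bp in Arhgap10. All 5 are narrower than the DNA wrapped on a single nucleosome.

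The hosts were long genes, as hosts of any region inside genes tend to be. The median host length over the 259 regions was 155 kb, with quartiles at 41.6 and 432 kb. It was 116 kb over lost regions inside genes, and 115 kb over all annotated gene bases, each base counted with its host by the same rule. By contrast, the median length of annotated protein-coding genes was 17169 bp. Hosts over 100 kb held 150 gained regions (57.9%) and 133 lost regions (56.4%), a difference of 1.56 points that did not pass the test (95% interval -7.11 to 10.2; two-sided exact test of Fisher, p = 0.785, adjusted p = 0.981), beside 53.9% of annotated bases. At a limit of 200 kb the counts were 117 (45.2%) and 85 (36.02%), a difference of 9.16 points that did not pass after adjustment (exact test, p = 0.0440, adjusted p = 0.0733). Beyond 1 Mb lay the hosts of 32 gained regions (12.4%, Wilson 95% interval 8.89% to 16.9%) and of 14 lost regions (5.93%, 3.57% to 9.71%), beside 7.15% of annotated bases, a limit chosen after seeing the lengths and given with no test. Protein-coding hosts of that length held 26 gained and 14 lost regions, and the remaining gained ones lay in the immunoglobulin loci Igk and Igh.

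**Figure D5:**
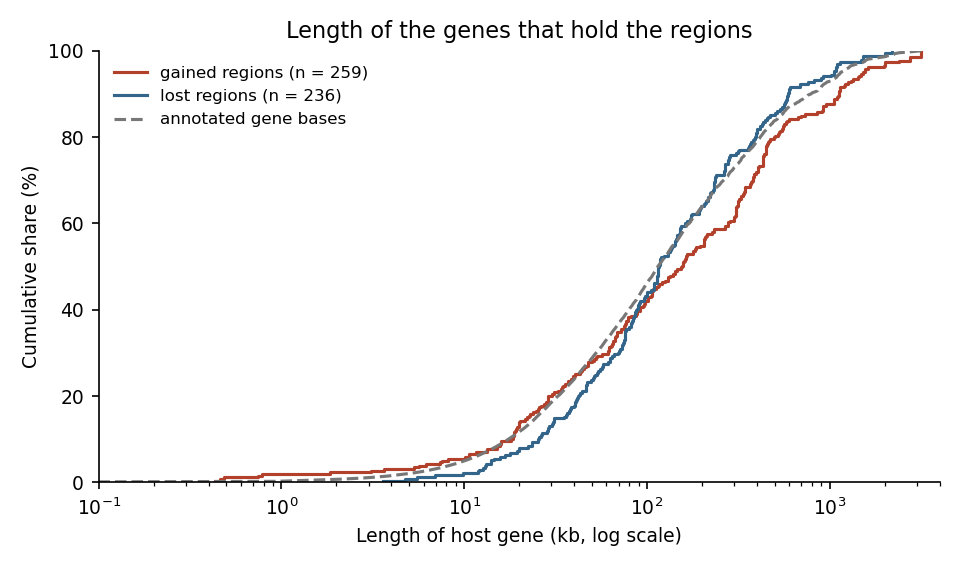
Cumulative share (vertical axis, percent) of gained and lost regions inside genes and of annotated gene bases by length of the host gene (horizontal axis, kb on a log scale). Medians are 155 kb for gained regions, 116 kb for lost regions and 115 kb for annotated bases.

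The longest protein-coding hosts were Dmd, Macrod2, Dlg2, Fhit and Pcdh15, from 2390 kb down to 1554 kb. Dmd encodes the muscle protein dystrophin, and its region of 1501 bp lay 56.3% of the way along the gene (chrX:84159176-84160676). In Fhit, a hydrolase gene at a chromosomal fragile site, a region of 1614 bp lay at 41.3% (chr14:10495656-10497269). In Dlg2, a scaffold of the postsynaptic density, one of 1350 bp lay at 20.8% (chr7:90886378-90887727). The closest of the 3 to its host start was that in Dlg2, at 411 kb. In all, 21 of the 178 protein-coding host genes exceeded 1 Mb, of 59 annotated protein-coding genes of that size.

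By biotype, 189 of the 259 members (73.0%, Wilson 95% interval 67.3% to 78.0%) had a protein-coding host, 54 (20.8%) a long non-coding RNA gene and 10 a pseudogene, of which 2 are transcribed. The remaining 6 lay in immunoglobulin loci, 4 in the kappa light chain locus Igk and 2 in the heavy chain locus Igh, each annotated as 1 gene span. Among lost regions 192 of 236 (81.4%, 75.9% to 85.8%) had a protein-coding host, and 82.8% of annotated gene bases do. The difference of -8.38 points did not pass after adjustment (95% interval -15.6 to -0.952; two-sided exact test of Fisher, p = 0.0324, adjusted over 5 comparisons 0.0809). No lost region had Igk or Igh as host.

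The 259 regions fell in 239 host genes, 223 of which held 1 region. There were 13 hosts with 2 regions, 2 with 3 and 1 with 4, so that 36 regions (13.9%) shared a host with another member. Lost regions did so in 32 of 236 cases (13.6%), a difference of 0.340 points (95% interval -5.84 to 6.41; two-sided exact test of Fisher, p = 1). Part of this sharing came from neighbouring pieces. In 5 of the 16 hosts the closest regions were at most 50 bp apart, as in Syn3, a synapsin of synaptic vesicles, with a gap of 6 bp (chr10:86233972-86235295), and in Ttc17, with a gap of 21 bp (chr2:94390900-94391491). Gm26861 and 9130221F21Rik, both long non-coding, had gaps of 20 and 13 bp. In 4 hosts, Dab1, Rnf180, Tnfrsf11a and Gm6809, the smallest gap was between 50 bp and 10 kb.

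In the other 7 hosts the regions lay far apart. The 4 regions of Igk had gaps of 736572 to 1374235 bp between neighbours, and the 2 of Igh one of 848 kb. In Gpc6, a glypican of the cell surface, the gap was 607 kb, in Pcdh15, a protocadherin of hair cell tip links, 316 kb, and in Macrod2, an ADP-ribosyl hydrolase, 313 kb. The second region of Fbn1 was 92.3 kb from the one at its start, at 45.7% of the gene (chr2:125412212-125412716). In Abhd18 the gap was 47.9 kb. Dab1, the adaptor of Reelin signalling in neurons, combined both patterns, with 2 regions 2980 bp apart at 52.6% and 52.9% of the gene and the other at 19.3%.

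MicroRNA hairpins lay within 1 kb of members at 2 loci, and mature sequences are shown with bases 2 to 8, the seed, in capitals. The 3 regions of the long non-coding RNA gene C130071C03Rik are pieces of 1 stretch, with gaps of 12 and 32 bp (chr13:83737785-83738593), and end 220 bp before the hairpin of Mir9-2, a microRNA of neural progenitors. The region at the start of Bcl7c contains the whole hairpin of Mir762. Sequences are from RefSeq GRCm38.p6.
mmu-miR-9-5p: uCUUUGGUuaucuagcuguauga
mmu-miR-9-3p: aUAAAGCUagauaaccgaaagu
mmu-miR-762: gGGGCUGGggccgggacagagc
Both loci were found by position alone, and no level of either microRNA was measured.

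Hosts were compared with 10 gene lists, as counts with no test. Ion channels and neurotransmitter receptors, the most frequent list, were hosts to 9 gained regions in 9 genes, of 300 protein-coding genes listed. For lost regions there were 8 hosts, which share Grm7 with the gained hosts and include, by symbol, the protease Htra1. By length, this list makes up 3.57% of protein-coding sequence. It made up 5.06% of the 178 protein-coding gained hosts and 4.57% of the lost ones. The calcium release channels Ryr2 and Ryr3 had regions of 132 bp (chr13:11613451-11613582) and 399 bp (chr2:112831378-112831776). The glutamate receptor genes Grm7 and Grik2 had regions of 453 bp (chr6:111153965-111154417) and 221 bp (chr10:49174231-49174451), at 55.2% and 88.4% of the gene. Kcnb2, a voltage-gated potassium channel, had one of 242 bp, and Kcnab1 had the second widest of all members.

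Synaptic and neuronal adhesion genes hosted 8 gained regions in 8 genes and 9 lost regions in 8 genes, of 155 protein-coding genes that make up 6.47% of protein-coding length. The gained hosts made up 4.49% of protein-coding hosts and the lost hosts 4.57%. Among the longest gained hosts were Dlg2, the scaffold Magi2, the netrin-G ligand Lrrc4c, Csmd3 and the netrin receptor Dcc. Their regions were 329 to 1350 bp wide, and none of these was within 10 kb of a host boundary. Of cadherins and protocadherins, Pcdh15 with 2 regions and Cdh8 with 1 were gained hosts (1.12% of protein-coding hosts), beside 3 lost hosts (1.71%) and 1.71% of protein-coding length. The lists do not show whether any of these genes were transcribed in these cells.

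The developmental transcription factor families contributed 7 gained hosts of 323 protein-coding genes (3.93% of protein-coding hosts) and 5 lost hosts (2.86%), beside 1.70% of protein-coding length. By symbol the gained hosts include Foxred2, an oxidoreductase and no transcription factor. The factors were Sox5, Foxp1, Zeb1, Zeb2, Ets1 and Klf4. Zeb1 and Zeb2, repressors of epithelial genes, had regions of 1502 bp (chr18:5751047-5752548) and 764 bp (chr2:44988662-44989425), the latter 5531 bp from the end of the gene. Klf4 was the only gained host of the 28 pluripotency factors, with a region of 389 bp centred 2039 bp from the start (chr4:55530242-55530630), and Pou5f1 the only lost one. Each is 1 gene, 0.562% of gained and 0.571% of lost protein-coding hosts. The list holds 0.128% of protein-coding genes and 0.0679% of protein-coding length. Chromatin regulators contributed 2 hosts of 166, among them the remodeller Chd7 (603 bp, 55.5 kb from a boundary), and hosted 4 lost regions in 3 genes. These are 1.12% of gained and 1.71% of lost protein-coding hosts, beside 1.10% of protein-coding length.

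The list of protein kinases and phosphatases of signalling, with 224 protein-coding genes, held 4 gained regions, in Prkg1, Ptprt, Pde4b and Igf1. By symbol it includes the growth factor Igf1. It is not a full list of signalling enzymes, as the gained hosts Prkd1 and Adcy1 are not on it. The 4 hosts made up 2.25% of gained protein-coding hosts, beside 3 lost hosts (1.71%) and 2.96% of protein-coding length. The widest of the 4, 1590 bp, lay at 91.9% of Prkg1, a cGMP-dependent kinase (chr19:30660663-30662252), and that in Igf1, the insulin-like growth factor, spanned 310 bp and lay 2009 bp from the start (chr10:87860120-87860429). Of the 1521 protein-coding genes of olfactory and vomeronasal receptors, 6.95% of all protein-coding genes but 0.591% of their length, Vmn2r1 alone was a host in each list. No transfer RNA gene of 403 was a host. Histone genes, with 5 hosts of 101 protein-coding genes, made up 2.81% of gained protein-coding hosts. They are 0.461% of protein-coding genes and 0.0151% of protein-coding length.

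Both a gained and a lost region were hosted by 10 genes, 4.18% of the gained and 4.59% of the lost hosts. Of all annotated genes, not weighted by length, 0.479% hosted a gained and 0.436% a lost region. They included Vmn2r1, Sgms1, Gpc6, Macrod2, Foxp1, Grm7, Magi2 and the long non-coding 6530403H02Rik and A330008L17Rik. Within a host, the nearest gained and lost regions were 31.0 kb apart in Vmn2r1 and 340 kb apart in Magi2, the extremes of the 10. Macrod2 alternated between the lists, with gained regions at 35.5% and 51.2% and lost regions at 43.6% and 59.2% of the gene. Sgms1, a sphingomyelin synthase, held 1 gained region at 96.5% and 3 lost regions between 48.1% and 81.3%.

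Members were found on all 21 chromosomes. The counts ran from 1 on chromosome Y and 3 on chromosomes 16 and 19 to 25 on chromosome 2. As a share of the gained regions of a chromosome, members were most frequent on chromosome 13 (19 of 32, 59.4%) and chromosome 11 (13 of 23, 56.5%), and least frequent on chromosome 16 (3 of 28, 10.7%) and chromosome X (5 of 39, 12.8%). On chromosome 13, 4 of the 19 members had a histone gene as host. The rule depends on the centre, and members near its limit lay 10 bp inside the lncRNA gene Gm30397 and 18 bp inside H1f4, while the nearest excluded centre lay 8 bp from the edge of Zfp3. For 17 members the centre lay in more than 1 annotated gene.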

How the data were processed

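ATAC-seq regions of E14 cells were taken from 2 lists the authors deposited, of regions gained and lost after cycloheximide, with groups from the sample titles. Each list holds positions in base pairs and no score, so depth, per-library precision and replicate spread are unknown. The submitters' processing notes name Bowtie2 2.2.4, SAMtools and the builds mm10, mm9 and GRCm38, with no role or order. Peak caller, threshold, differential test and pooling of replicates are not given in the sources used here, and they decide which regions are listed and how wide they are. Positions were read as GRCm38, in which 7 gained regions contain a whole histone gene, and are printed 1-based. No column of per-sample values was used.

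Each list consists of 2 sorted runs of chromosomes, whose meaning is not given. Spans of 49943 genes came from RefSeq GRCm38.p6. Strand, transcript starts and sequence came from the RefSeq promoter table (32851 windows), which gave the strand of 27025 genes; windows on chromosome 18 were not used here. Exons were not used here, so overlap with exons and introns was not tested, and sequences of the regions themselves were not read. Shares were compared by Fisher's exact test (two-sided) with Benjamini-Hochberg adjustment over 5 comparisons, and over 4 of start and end, at a threshold of 0.05. Wilson and Newcombe 95% intervals were computed with scipy 1.17.1 and statsmodels 0.14.6 in Python 3.11.15. The background share counts every annotated base with the host rule. The tests were checked on simulated counts of independent regions, and that check does not cover regions that share a host or lie close together. Named genes were hosts of the 5 widest and 5 narrowest members, hosts of several members, the 5 longest and shortest protein-coding hosts, up to 6 hosts a gene list, protein-coding hosts with a region within 1 kb of a boundary, hosts of both lists, and genes contained in a region. Mecom, non-coding hosts at boundaries, and the genes whose sequence is printed were picked with their values in view. The members and lists were chosen with earlier results of these data known. Some hosts that this rule names are not reported here.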

Additional observations from a re-analysis of the deposited data

How the results depend on the processing

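Differences are gained minus lost inside genes, in percentage points, or inside minus outside for width, with Fisher's exact tests. Of 82 recomputed values 62 kept direction and side of the threshold. The excess within 1 kb of the host start did so in 6 of 7 alternatives and did not pass in the first sorted run (11.3 points, exact test, adjusted p = 0.160). The share with a protein-coding host stayed short of the threshold in all 9. In exact tests the width difference was 6.95 points (adjusted p = 0.170) for regions wholly in a gene, 3.79 (0.242) at a limit of 1000 bp, 11.4 (0.461) in the first run, and 7.15 (0.163) without regions within 1 kb of a transcript start or on chromosome 18. The boundary difference passed at 1 kb (8.54 points), at 5 kb (9.64) and in the outer 10% of the host (9.54, exact test, adjusted p = 0.0368). Within 10 kb of the start it was 6.29 in the first run, 10.4 in the upper 50% by width and 8.99 without histone hosts, none past the threshold. Sharing a host changed sign, never past the threshold, with protein-coding genes alone (-4.51), the shortest host (-0.432), neighbouring regions joined (-4.31), the upper 50% by width (-2.17), the first run (-6.94) and any same-list region within 100 kb (-3.90). Hosts over 50 kb gave -4.07, hosts over 200 kb 9.16 (exact test, adjusted p = 0.0733) and the first run -0.304 for 100 kb. Within 1 kb of the end the difference was 0 without histone hosts. Beyond fewer regions in subsets, the cause was not tested. The first run, limits of 1 kb from starts and histone exclusion were chosen after seeing the data. No paired analysis was possible because the lists carry no per-library values, and leaving out a replicate was not possible for the same reason. Read depth behind a region is unknown.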
